A study of Mus musculus with 4 samples.

Results

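Cathepsins B, D, L, S, H, Z and C (Ctsb, Ctsd, Ctsl, Ctss, Ctsh, Ctsz and Ctsc), the lysosome-associated membrane proteins Lamp1 and Lamp2, and progranulin (Grn) were followed in cultured mouse prefrontal cortex (PFC). These 10 genes were chosen by name, and their rows were found by matching the Ensembl identifiers of the count files to gene names. They are 10 of the 55421 genes listed in each library, and all 10 passed the expression filter that left 17144 genes for testing. The lysosome is the acidic compartment in which cells break down protein, lipid and sugar chains. Cathepsins are its peptidases, made as inactive precursors and switched on in acid, and most belong to the cysteine type related to papain while cathepsin D is an aspartic peptidase. Lamp1 and Lamp2 are heavily glycosylated proteins of the limiting membrane, and progranulin is a secreted glycoprotein that is carried to lysosomes and cut there into granulins, with loss of function causing lysosomal storage and neurodegenerative disease.

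The cells came from the PFC of wild-type C57BL/6 mice at postnatal day 0, were dissociated, and were grown for 10 days in neurobasal medium with B27, either with 5 ng/mL of the growth factor FGF2 or without it. The comparison asks how culture with FGF2 changed the RNA of these mouse cells. There were 2 libraries per group (FGF2 replicates 1 and 2, no FGF2 replicates 1 and 2), made from total RNA. The total count per library ranged from 9166432 to 10799886, so that 3 counts correspond to 0.278 to 0.327 CPM, the count of a gene divided by the library's total and set to a common scale. Levels below are CPM after scaling by the trimmed mean of M-values (TMM), given as mean ± SD over n = 2 libraries. The methods of the study describe technical replicates for most of its samples and do not name the mouse cultures apart, so p-values measure the spread between libraries, which may leave out the variation between cultures. The libraries are bulk RNA of a mixed culture, in which fewer cells of a type and less RNA per cell cannot be told apart.

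Both neurons and glia were present by their markers, and their summed levels differed between the groups. Markers counted as risen, higher or lower passed the edgeR test given below. That test called 20.7% of all tested genes higher and 19.9% lower. The summed level of 8 astrocyte markers was 12427 and 12309 CPM with FGF2 and 7526 and 7478 CPM without FGF2, and 7 of the 8 rose. The 8 neuron markers summed to 2903 and 2939 CPM with FGF2 and 3996 and 3977 CPM without it, with 7 lower and 1 higher. Among 7 tested markers of the oligodendrocyte lineage all 7 rose, from summed levels of 426 and 434 CPM to 1501 and 1506 CPM. The 5 tested markers of meningeal fibroblasts and mural cells split into 2 higher and 2 lower, at 45.6 to 59.5 CPM in sum, and endothelial markers summed to at most 8.35 CPM, with Cldn5 at 0 counts in every library. The lists thus differed in direction between cell types, and their part in the results below was not tested.

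Of the 10 genes, 8 were higher with FGF2 and none was lower (edgeR quasi-likelihood test, Benjamini-Hochberg adjusted p below 0.05), where 20.7% of all tested genes were called higher, 19.9% lower and 40.5% in either direction. The genes that rose were Ctsc, Ctsz, Lamp2, Ctsl, Ctsb, Grn, Lamp1 and Ctsd, by 1.31-fold to 2.42-fold in mean level. Ctsh and Ctss did not pass the test, and all 10 estimates were above 0. For 9 of the 10 genes the lower FGF2 library exceeded the higher library without FGF2, as it did for 33.6% of all tested genes. The reverse order held for none of the 10 and for 33.4% of tested genes, and the groups were apart in one order or the other for 67.0%. The median log2 fold change over the 10 genes was 0.68, while the middle of all tested genes ran from a lower quartile of -0.27 to an upper quartile of 0.29. Summed over the 10 genes, the level was 2450 and 2398 CPM with FGF2 and 1517 and 1514 CPM without FGF2. These genes thus took 0.242% of the scaled counts with FGF2 and 0.152% without it, a 1.60-fold difference.

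**Figure D1:**
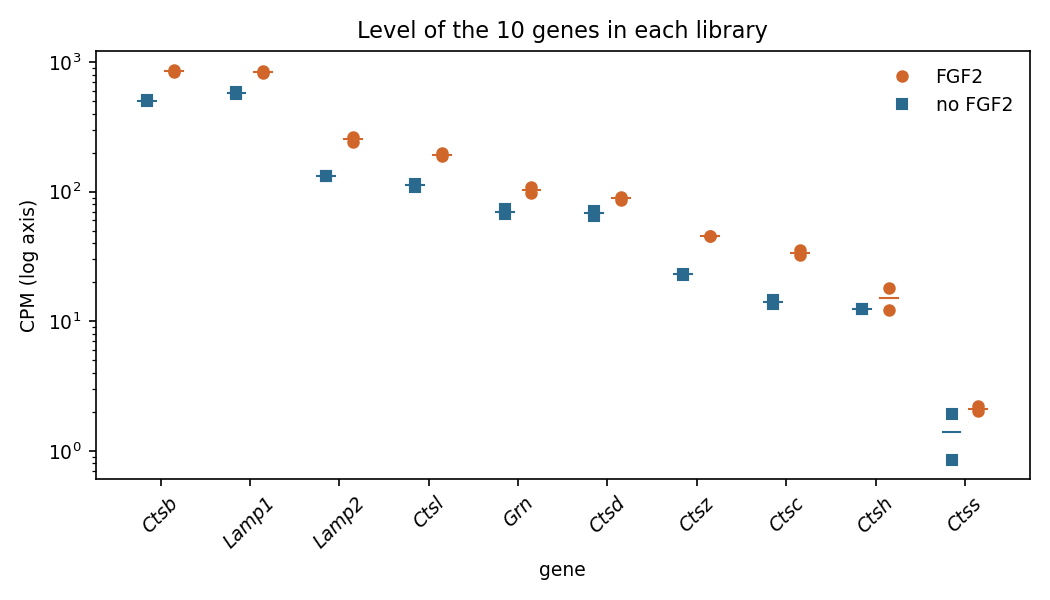
Level of each of the 10 genes in each library (CPM, log axis), ordered by level, with circles for the 2 FGF2 libraries, squares for the 2 libraries without FGF2 and a short line at each group mean. The circles lie above the squares for every gene except Ctsh, whose lower circle at 12.3 CPM meets the squares at 12.3 and 12.5 CPM, and for Ctss the gap is small against the spread of its squares.

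Lamp1, one of the most abundant proteins of the lysosomal membrane, lies on chromosome 8 of mm10 from 13159161 to 13175338. Its level was 856 and 818 CPM with FGF2 and 570 and 592 CPM without FGF2. The groups did not overlap, and the 2 libraries of each group were close to each other. The mean was 837 ± 26.8 CPM against 581 ± 15.5 CPM, a log2 fold change of 0.53 ± 0.04 (SE) with an adjusted p of 2.0e-48 (edgeR). Grtp1 on the opposite strand overlaps 9.31% of the exonic length of Lamp1, and the strand setting of the counting is not given in the sources used here.

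Lamp2, whose splice forms serve in membrane integrity, fusion of autophagosomes with lysosomes and chaperone-mediated autophagy, lies on chromosome X from 38401357 to 38456454. It measured 242 and 264 CPM with FGF2 and 133 and 133 CPM without FGF2. The lowest FGF2 library was well above both others. From 133 ± 0.36 CPM the level rose to 253 ± 15.5 CPM, a log2 fold change of 0.93 ± 0.05 (SE) with an adjusted p of 3.8e-73 (edgeR). The counts do not separate its splice forms.

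Lamp2 rose more than Lamp1 within the same libraries. The ratio of Lamp2 counts to Lamp1 counts was 0.283 and 0.323 with FGF2 and 0.232 and 0.225 without FGF2. The 2 groups of ratios do not overlap. With 2 libraries a group an exact permutation test of such a ratio cannot go below a two-sided p of 0.33, and none was made.

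Ctsb, the most abundant of the 7 cathepsins here and both an endopeptidase and a carboxypeptidase, lies on chromosome 14 from 63122462 to 63145923. It stood at 865 and 841 CPM with FGF2 against 506 and 497 CPM without FGF2. The spread within each group was small beside the distance between them. The mean was 853 ± 16.8 CPM against 501 ± 6.39 CPM, giving a log2 fold change of 0.77 ± 0.04 (SE) and the smallest adjusted p of the 10 genes, 5.5e-100 (edgeR). Exons of Fdft1 on the opposite strand cover 12.8% of the exonic length of Ctsb.

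Ctsl, a cysteine endopeptidase that takes part in the cutting of progranulin to granulins, lies on chromosome 13 from 64359337 to 64370890. Its level was 197 and 189 CPM with FGF2 and 115 and 109 CPM without FGF2. Again no library crossed into the other group. The mean rose from 112 ± 4.35 CPM to 193 ± 5.77 CPM, a log2 fold change of 0.79 ± 0.06 (SE) with an adjusted p of 1.8e-43 (edgeR). Ctsl shares stretches of at least 100 bases and 95% identity with 19 other genes, so its level is uncertain where reads of these stretches were dropped or assigned elsewhere. One of them, Gm49230, overlaps 6.09% of the exonic length of Ctsl on the same strand (395 bases), and Gm47123 overlaps 26.8% on the opposite strand.

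Ctsz, a cysteine carboxypeptidase, lies on chromosome 2 from 174427493 to 174439039. It was found at 45.7 and 45.2 CPM with FGF2 and at 23.2 and 22.8 CPM without FGF2. Replicates differed by less than 1 CPM in both groups. The log2 fold change was 0.98 ± 0.11 (SE), 1.98-fold in mean level, with an adjusted p of 2.9e-18 (edgeR).

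Ctsc, also called dipeptidyl peptidase I and known for activating serine proteases of immune cells, lies on chromosome 7 from 88278085 to 88310888. Its level was 35.3 and 32.2 CPM with FGF2 and 13.5 and 14.5 CPM without FGF2. It had the highest log2 fold change of the 10 genes, with both FGF2 libraries far above the others. The mean was 33.8 ± 2.15 CPM against 14.0 ± 0.696 CPM, a log2 fold change of 1.27 ± 0.13 (SE) with an adjusted p of 2.3e-21 (edgeR). Of all tested genes, 3.84% had a higher log2 fold change than Ctsc, against 5.97% for Ctsz, 6.53% for Lamp2, 8.36% for Ctsl and 8.69% for Ctsb.

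Ctsd, the main aspartic peptidase of the lysosome, whose loss causes a neuronal ceroid lipofuscinosis, lies on chromosome 7 from 142375911 to 142388038. It was at 86.9 and 90.7 CPM with FGF2 and at 71.1 and 64.6 CPM without FGF2. The groups did not overlap, but they lay closer together than those of the cysteine cathepsins that rose. The mean was 88.8 ± 2.62 CPM against 67.8 ± 4.61 CPM, a log2 fold change of 0.39 ± 0.07 (SE) with an adjusted p of 8.9e-07 (edgeR). A second gene on the same strand, Gm49369, covers 34.4% of the exonic length of Ctsd and is listed at 0 counts in every library. Reads that lie in exons of both genes may have been set aside as ambiguous, so the level of Ctsd may be too low, and its level against other genes is uncertain.

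Ctsh, a cysteine aminopeptidase, lies on chromosome 9 from 90054152 to 90076089. It measured 12.3 and 18.0 CPM with FGF2 and 12.3 and 12.5 CPM without FGF2. FGF2 replicate 1 lay among the libraries without FGF2, and FGF2 replicate 2 stood above all others. The log2 fold change of 0.29 ± 0.16 (SE) did not pass the test (adjusted p = 0.138, edgeR). Without FGF2 replicate 1 it was 0.53 with an adjusted p of 0.0108, and without FGF2 replicate 2 it was -0.02 with an adjusted p of 0.961, so that 1 library decides its value.

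Ctss, a cysteine cathepsin of microglia and other antigen-presenting cells, lies on chromosome 3 from 95526786 to 95556403. It had only 20 counts in each FGF2 library, against 9 and 21 in the other group. In CPM both FGF2 libraries, at 2.20 and 2.03, were above 0.854 and 1.93 without FGF2, but the gap to the nearer library was small. The log2 fold change of 0.59 ± 0.47 (SE) did not pass the test (adjusted p = 0.334, edgeR), and this SE is larger than that of any other of the 10 genes.

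Markers of microglia, in which Ctss and Ctsc are known to be abundant, were low in all libraries. Their 14 markers summed to 33.3 and 37.4 CPM with FGF2 and to 17.0 and 19.3 CPM without FGF2. Of 10 tested markers 5 were higher and none lower, beside 20.7% and 19.9% of all tested genes. The median log2 fold change was 0.90. The number higher was 3 with DESeq2 and when FGF2 replicate 2, no FGF2 replicate 1 or no FGF2 replicate 2 was left out. Csf1r, the receptor on which microglia depend, had 49 and 52 counts with FGF2 beside 21 and 21 in the other group, a log2 fold change of 1.43 (adjusted p = 8.7e-05, edgeR). The markers Tmem119, P2ry12 and Aif1 had few counts. Tmem119 had 4, 3, 0 and 4 counts in FGF2 replicates 1 and 2 and no FGF2 replicates 1 and 2, P2ry12 had 7, 5, 3 and 5, and Aif1 had 5, 3, 4 and 3. They are a small part of the list, whose counts in the same order were 303, 369, 179 and 209. Most of the counts of the list came from markers not named here. The highest log2 fold change of a tested marker in the list was 2.07. The microglial list moved in the same direction as the cathepsins, at a summed level of at most 37.4 CPM beside at least 722 CPM for the 7 cathepsins together, and its part in the result was not tested.

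Grn, which encodes progranulin, lies on chromosome 11 from 102430315 to 102437048. Its level was 108 and 97.2 CPM with FGF2 and 73.3 and 67.1 CPM without FGF2. The groups were apart, with a larger spread between replicates than for Lamp1. The mean was 102 ± 7.41 CPM against 70.2 ± 4.40 CPM, a log2 fold change of 0.55 ± 0.07 (SE) with an adjusted p of 2.2e-13 (edgeR).

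The RNAs of Sort1, Psap and Tmem106b, partners of progranulin, had smaller log2 fold changes than Grn, a difference that was not tested. Sort1, the sortilin receptor that takes up progranulin, was at 418 ± 12.4 CPM with FGF2 and 382 ± 0.366 CPM without FGF2 (log2 fold change 0.13, adjusted p = 0.0038, edgeR), a call that was lost with DESeq2 and when FGF2 replicate 1 or either library without FGF2 was left out. Psap, encoding prosaposin, which accompanies progranulin to the lysosome, was at 1136 ± 40.3 and 1127 ± 16.5 CPM with overlapping libraries (log2 fold change 0.01, adjusted p = 0.835, edgeR). Tmem106b, a lysosomal membrane protein linked to progranulin disease, was at 192 ± 11.6 and 171 ± 14.9 CPM, with 184 against 182 CPM in the nearest libraries of the groups (log2 fold change 0.17, adjusted p = 0.0034, edgeR), and its call was lost with DESeq2, without FGF2 replicate 2 and without no FGF2 replicate 1.

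**Figure D2:**
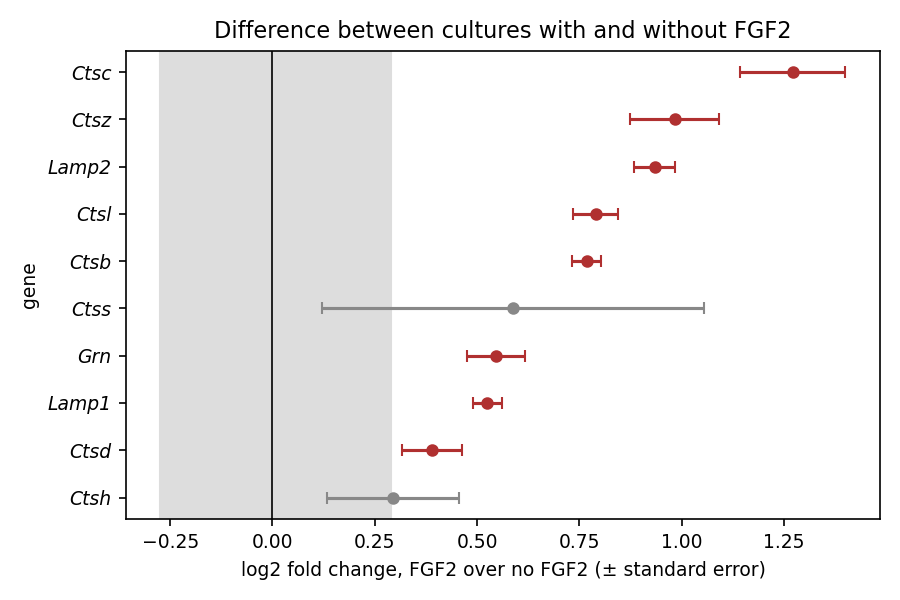
Log2 fold change (FGF2 over no FGF2, edgeR) of the 10 genes with its standard error, in red where the adjusted p was below 0.05 and in grey otherwise. The grey band spans the quartiles of all 17144 tested genes, from -0.27 to 0.29, and the 8 genes that passed lie to its right, from Ctsd at 0.39 to Ctsc at 1.27.

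The mix of cathepsins was led by Ctsb in every library and shifted slightly with FGF2. Of the summed counts of the 7 cathepsins, Ctsb took 69.3% ± 0.32 with FGF2 and 68.5% ± 0.44 without it, and Ctsl took 15.7% ± 0.23 and 15.3% ± 0.30. Ctsd fell from 9.27% ± 0.45 to 7.21% ± 0.32 of the counts, although its own level rose. Ctsc took 2.74% ± 0.13 with FGF2 against 1.91% ± 0.13, and Ctsz 3.69% ± 0.027 against 3.15% ± 0.030. These shares are a description with no test, and a share depends on every other cathepsin in the sum. The shift can also be read against Ctsb alone. Per Ctsb count there were 0.0408 and 0.0383 Ctsc counts in the FGF2 libraries and 0.0267 and 0.0291 in the others. The ratio of Ctsd to Ctsb moved the other way, from 0.141 and 0.130 without FGF2 to 0.101 and 0.108 with FGF2. For Ctsl the ratio to Ctsb was 0.228 and 0.224 with FGF2 and 0.227 and 0.219 without FGF2, so the groups overlap.

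Levels of different genes were compared per kb of exonic length. With FGF2, Lamp1 stood first at 313 ± 10.0 CPM per kb and Ctsb followed at 141 ± 2.77. Ctsd at 37.8 ± 1.11, Ctsz at 31.6 ± 0.25, Ctsl at 29.7 ± 0.89, Grn at 29.5 ± 2.13 and Lamp2 at 26.5 ± 1.62 CPM per kb formed a middle group. By library, Grn at 31.0 and 28.0 lay on both sides of Ctsl at 30.4 and 29.1. Narrow gaps parted Grn from Ctsz at 31.7 and 31.4 and from Lamp2 at 25.4 and 27.7. Ctsc at 5.81 ± 0.37, Ctsh at 3.37 ± 0.90 and Ctss at 1.56 ± 0.09 CPM per kb were the lowest. Without FGF2 the middle group had another order, with Ctsd at 28.9 ± 1.96, Grn at 20.2 ± 1.27, Ctsl at 17.2 ± 0.67, Ctsz at 16.0 ± 0.15 and Lamp2 at 13.9 ± 0.04 CPM per kb, and Ctsh at 2.76 ± 0.03 was above Ctsc at 2.41 ± 0.12. The order inside the middle group rests on the length used. With the shortest principal transcript of each gene, a choice made after seeing the data, Ctsl moved to the third place at 97.9 CPM per kb with FGF2, ahead of Lamp2 at 70.3, Grn at 43.8 and Ctsd at 41.7, while Lamp1 and Ctsb stayed first and second and Ctss last.

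Many lysosomal genes are known targets of TFEB and its relatives, which bind the E-box CACGTG in an extended form. The window from 250 bases before to 50 bases after the start site was searched on both strands in the RefSeq sequences of GRCm38.p6, where 8 of the 10 genes have one, with Ctsb and Ctsh missing. CACGTG is in 3 of these 8 windows and in 7.15% of all 32851 windows. The longer TCACGTG, or CACGTGA on the other strand, contains it and is in 2 of the 8 windows and 3.77% of all windows. TCACGTG is called the extended form below. A still longer form, with 2 set bases on each side of CACGTG, was also searched. That form is in 0 of the 8 windows and 0.326% of all windows. Lamp1 has 4 matches to the extended form, with first bases 62, 45, 28 and 16 bases before the start site, and Ctsd has 2, at 245 and 99 bases before it. Ctsl has 1 match to CACGTG alone, 236 bases before its start site. The windows of Lamp1 (chr8:13159051-13159160, plus strand) and Ctsd (chr7:142387828-142387937, minus strand), which hold the matches nearest to a start site, are shown beside that of Ctsc (chr7:88277975-88278084, plus strand), the gene with the highest fold change and no match. Each shows the 110 bases before the start site, 5′ to 3′, with the extended E-box in capitals. The start sites are those of RefSeq, and those of Ctsd, Ctsl and Grn lie inside the genes as GENCODE draws them, as do the match of Ctsl and the shown stretch of Ctsd.
Lamp1: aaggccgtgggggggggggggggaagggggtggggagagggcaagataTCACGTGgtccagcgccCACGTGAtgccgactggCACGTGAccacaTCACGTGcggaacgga
Ctsd: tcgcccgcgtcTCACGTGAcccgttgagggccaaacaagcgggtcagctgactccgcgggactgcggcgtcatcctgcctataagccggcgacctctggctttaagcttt
Ctsc: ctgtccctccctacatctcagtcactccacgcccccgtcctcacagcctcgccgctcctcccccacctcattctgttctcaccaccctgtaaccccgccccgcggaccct

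Lamp1 and Ctsd, with the matches to the extended form, had log2 fold changes of 0.53 and 0.39, and Ctsl, with the shorter match, had 0.79. Ctsc, Ctsz, Lamp2, Ctss and Grn, with no match in this window, had 1.27, 0.98, 0.93, 0.59 and 0.55. A match describes letters in this window and was not tested for binding.

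**Figure D3:**
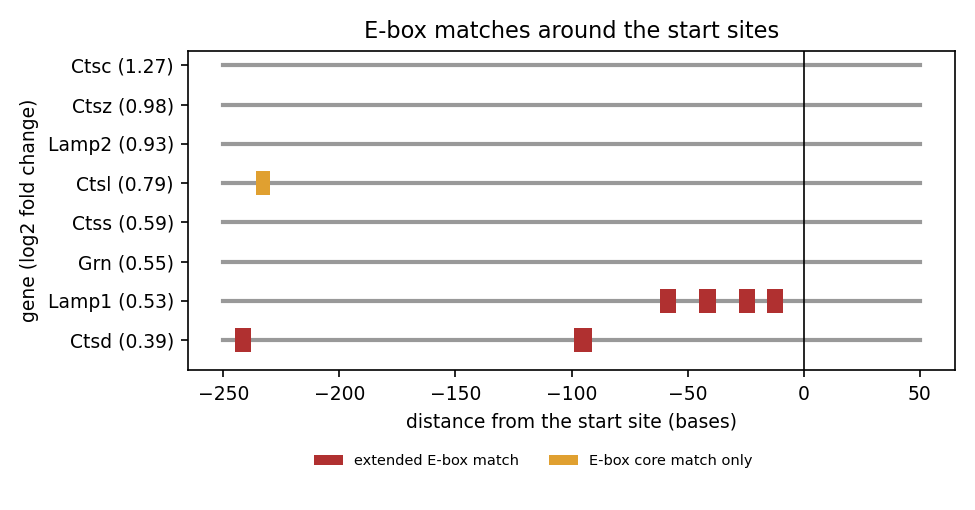
Windows from 250 bases before to 50 bases after the start site of the 8 genes with a RefSeq window, ordered by log2 fold change (in brackets). Red blocks mark extended E-box matches and the yellow block a match to the core letters only, and the blocks lie in Lamp1, Ctsd and Ctsl and in no other window.

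Of these factors, Tfeb and Mitf had a lower level in CPM than Tfe3, and each of them was called higher with FGF2. Tfeb was at 12.3 and 11.5 CPM with FGF2 and at 6.45 and 5.99 CPM without FGF2. The groups are apart, at 112 and 113 counts against 68 and 65. Its log2 fold change was 0.93 ± 0.20 (SE) with an adjusted p of 2.9e-05 (edgeR). Tfe3, a relative with the same binding letters, rose from 58.0 ± 1.15 to 77.2 ± 0.671 CPM (log2 fold change 0.41, adjusted p = 9.2e-07, edgeR). Mitf, of the same family, was at 10.3 ± 0.605 against 7.10 ± 0.643 CPM, a rise (adjusted p = 0.0241, edgeR) whose call was lost with DESeq2, without FGF2 replicate 2 and without either library lacking FGF2. Mtor, the kinase that holds TFEB in the cytoplasm, fell from 211 ± 7.69 to 170 ± 3.35 CPM (log2 fold change -0.31, adjusted p = 5.3e-09, edgeR). Its partner Rptor was at 115 ± 0.373 CPM with FGF2 and 129 ± 1.54 CPM without FGF2 (adjusted p = 0.0225, edgeR), and this call was lost with DESeq2 and when FGF2 replicate 2 or either library without FGF2 was left out. Of the 10 tested genes of this list, 5 were higher and 2 lower, beside 20.7% and 19.9% of all tested genes. With DESeq2 only 2 were higher and 1 lower. Fewer were also called when FGF2 replicate 2 or either library without FGF2 was left out.

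Among 117 other lysosomal and autophagy genes, 108 were tested, of which 51 rose, 15 fell and 42 did not pass, with a median log2 fold change of 0.15. Over all tested genes 20.7% were called higher and 19.9% lower, the shares to set beside these counts and those of each list below. The lists of other peptidases, cystatins and other membrane proteins had no gene called lower, with DESeq2 or at an unadjusted p below 0.05 either. These lists also had the highest medians of the other lysosomal and autophagy lists, an order read after the values were seen. Of 8 tested other peptidases of the lysosome 6 rose and none fell, with a median log2 fold change of 0.48, and 4 rose when FGF2 replicate 2 was left out. Lgmn, the asparaginyl peptidase that processes several cathepsins, was at 129 and 124 CPM with FGF2 and 70.5 and 73.1 CPM without FGF2. Its groups were as far apart as those of Ctsl, with a log2 fold change of 0.81 ± 0.07 (SE) and an adjusted p of 5.2e-32 (edgeR). Ctsa, a serine carboxypeptidase that also protects lysosomal glycosidases, and Ctsf, a further cysteine cathepsin, had log2 fold changes of 0.75 (adjusted p = 2.2e-31) and 0.56 (adjusted p = 1.1e-08, edgeR).

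Cst3, the secreted cystatin C that blocks cysteine cathepsins, rose alongside them. It was at 704 and 683 CPM with FGF2 and 437 and 433 CPM without FGF2. The log2 fold change was 0.67 ± 0.04 (SE) with an adjusted p of 3.7e-72 (edgeR), and the groups were far apart. The intracellular inhibitor Cstb was at 14.1 ± 1.88 and 13.2 ± 0.941 CPM and did not pass the test (adjusted p = 0.678, edgeR). Of the 4 cystatins listed only these were tested.

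Of 17 tested other proteins of the lysosomal membrane 9 rose and none fell, with a median log2 fold change of 0.32, and 6 rose with DESeq2. Cd63, a tetraspanin of late endosomes and lysosomes, rose from 117 ± 0.762 to 208 ± 7.17 CPM (log2 fold change 0.83, adjusted p = 6.5e-51, edgeR). Npc1, which exports cholesterol from lysosomes, rose from 116 ± 1.43 to 170 ± 4.03 CPM (log2 fold change 0.55, adjusted p = 1.9e-20, edgeR). Cln3, mutated in juvenile neuronal ceroid lipofuscinosis, was at 23.3 ± 1.85 against 17.0 ± 0.096 CPM (adjusted p = 0.0030, edgeR), a call lost with DESeq2 and without FGF2 replicate 1.

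Lysosomal hydrolases of lipids and sugar chains, with their activators, numbered 29 tested, of which 19 rose and 1 fell, with a median log2 fold change of 0.29. With DESeq2, 13 rose and 1 fell. Asah1, acid ceramidase, rose from 46.7 ± 0.725 to 79.7 ± 0.754 CPM (log2 fold change 0.77, adjusted p = 5.5e-20, edgeR). Hexa, the alpha subunit of hexosaminidase A, and Npc2, the soluble partner of Npc1, rose with log2 fold changes of 0.66 (adjusted p = 1.7e-17) and 0.65 (adjusted p = 6.2e-19, edgeR). Ids, iduronate 2-sulfatase, went the other way, at 301 ± 8.05 CPM with FGF2 and 371 ± 4.56 CPM without FGF2 (log2 fold change -0.30, adjusted p = 3.6e-12, edgeR).

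The proton pump that acidifies the lysosome did not follow the cathepsins. Of 18 tested V-ATPase subunits and accessory proteins 10 fell and 2 rose, with a median log2 fold change of -0.17. With DESeq2, 7 fell and 2 rose, and fewer also fell with any library left out. Atp6v0a1, the form of the membrane subunit a found at neuronal vesicles, fell from 443 ± 1.52 to 321 ± 14.4 CPM (log2 fold change -0.47, adjusted p = 1.2e-29, edgeR). Its relative Atp6v0a2 rose from 84.1 ± 6.87 to 136 ± 9.16 CPM (log2 fold change 0.69, adjusted p = 1.1e-25, edgeR). Atp6v1g2, a subunit enriched in neurons, and the catalytic subunit Atp6v1a fell with log2 fold changes of -0.39 (adjusted p = 2.2e-08) and -0.37 (adjusted p = 8.1e-17, edgeR), while Atp6v0e rose by 0.39 (adjusted p = 3.9e-04, edgeR). The neuron markers, which also serve synaptic vesicles in part, fell in these libraries with a median log2 fold change of -0.46, and their part in the V-ATPase result was not tested.

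**Figure D4:**
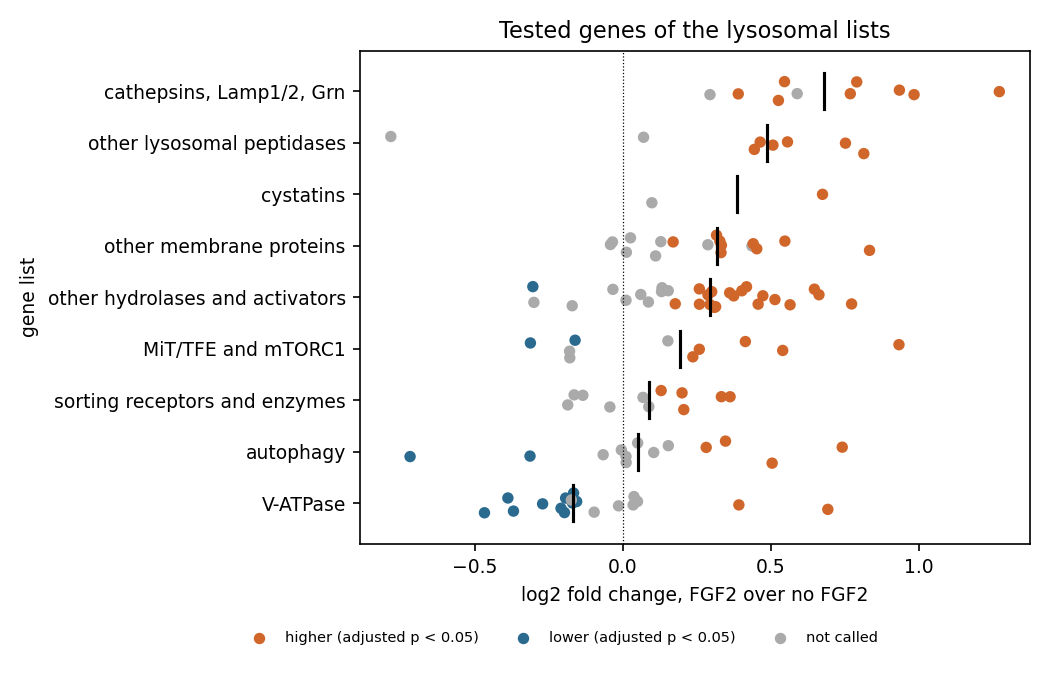
Log2 fold change (FGF2 over no FGF2) of each tested gene in 9 lists, with orange for higher, blue for lower and grey for genes that did not pass, and a bar at each list's median. The medians run from 0.68 for the 10 genes followed here through 0.48 for other peptidases to -0.17 for the V-ATPase, and points are shifted vertically only to separate them.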

How the data were processed

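The authors mapped paired reads to mm10 with HISAT2 2.1.0, filtered them by mapping quality with Samtools, counted them per gene with HTSeq 0.11.2, and deposited these counts unnormalized. Which annotation release, strand mode and overlap mode they used is not given in the sources used here. Read pairs in no gene made up 43.2% to 45.9% and ambiguous pairs 1.47% to 1.76% of each file, and these tallies were left out of totals and tests. Gene names, coordinates and exonic lengths came from GENCODE M21, to which 55240 of 55421 identifiers matched.

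Counts were tested in R 4.3.3 with edgeR 4.0.16 (quasi-likelihood F-test, TMM, edgeR's expression filter, robust fit, group as the only term), with Benjamini-Hochberg adjustment over all 17144 genes tested and a threshold of 0.05. TMM factors were 0.992 to 1.01 and the common biological coefficient of variation was 3.90%. The replicates differed by more than counting noise (chi-square per degree of freedom 2.28 with FGF2, 1.76 without), and each library entered the test as 1 unit. Such a difference does not show that the libraries came from separate cultures. The fit was tested on simulated data in which 200 genes changed, far fewer than the 6949 called in the real data. It called 55 of them at 1.25-fold, 112 at 1.5-fold and 158 at 2-fold, with 3, 7 and 3 unchanged genes called. Alternatives were other scalings, other filters, limma-voom (limma 3.58.1), DESeq2 1.42.0, a replicate block, a threshold of 0.01 and each library left out. Shared stretches were sought with BLAST in GENCODE M21 transcripts.

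The 10 genes and all lists were chosen with earlier results of these data known. From each lysosomal list the text names the called genes with the 3 largest rises and falls at a mean of at least 5 CPM. Known partners of the 10 genes and some of the microglial markers are also named.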

Additional observations from a re-analysis of the deposited data

How the results depend on the processing

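Ctsc, Ctsz, Lamp2, Ctsl, Ctsb, Grn, Lamp1 and Ctsd were higher and past the threshold in all 13 alternatives. With 1 library left out, the number of the 10 genes called higher ranged from 8 to 9 and none was lower, with log2 fold changes of 1.20 to 1.33 for Ctsc, 0.97 to 0.99 for Ctsz, 0.87 to 0.99 for Lamp2, 0.75 to 0.83 for Ctsl, 0.74 to 0.78 for Ctsb, 0.47 to 0.62 for Grn, 0.49 to 0.55 for Lamp1 and 0.32 to 0.46 for Ctsd. Ctss ranged from 0.12 to 1.29 and Ctsh from -0.017, without FGF2 replicate 2, to 0.53. DESeq2 called 2313 of all genes higher and 2143 lower, against 3541 and 3408 with edgeR, and 13.5% of genes higher, with the same 8 of the 10. Leaving out a library gave 2642 to 3145 genes higher and 2558 to 3054 lower. Upper quartile scaling called 3270 higher and 3713 lower. Of the 66 calls in the other lysosomal lists, 41 were kept in every alternative, none was reversed, 21 were lost with DESeq2 and 24 with some library left out. Per kb of exonic length, the share of Ctsb among the cathepsins rose by 1.38 percentage points, that of Ctsz by 2.01, and that of Ctsd fell by 4.03, as the weights of the genes differ. A minimum of 10 counts in every library left no value for Ctss. The cause of the other changes was not tested.

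The library titles use the same replicate tags in both groups, and no label says whether same-numbered libraries were paired. Deviations of same-numbered libraries were correlated at 0.0077, which cannot decide whether the cultures were paired. With the replicate number as a block, 8 of the 10 genes were higher and none lower, 49 of the other lysosomal genes were higher and 14 lower, and 3476 of all genes were higher and 3338 lower.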

Other observations

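Receptors and enzymes that deliver lysosomal proteins, and the genes of autophagy, had medians nearer to 0 than the cathepsins. Over all tested genes, 20.7% were called higher and 19.9% lower. Of 11 tested sorting genes 5 were higher and none lower (1 was lower with upper quartile or total count scaling and at an unadjusted p below 0.05), with a median log2 fold change of 0.09, and the number higher fell to 2 with DESeq2 and when either library without FGF2 was left out, and to 3 with upper quartile or total count scaling, with no expression filter, with limma-voom and without FGF2 replicate 1. Lrp1, an endocytic receptor that takes up many secreted hydrolases, rose from 1059 ± 5.66 to 1361 ± 11.6 CPM (log2 fold change 0.36, adjusted p = 5.4e-28, edgeR). Of the mannose 6-phosphate receptors that carry cathepsins, Igf2r rose with a log2 fold change of 0.33 (adjusted p = 6.7e-08, edgeR), and M6pr was at 55.7 ± 0.042 against 48.3 ± 0.958 CPM (adjusted p = 0.0466, edgeR), a call that 11 of 13 alternatives did not keep.

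Of 13 tested autophagy genes 4 were higher and 2 lower, beside 20.7% and 19.9% of all tested genes, with a median log2 fold change of 0.05. Related genes went in opposite directions. Map1lc3b, the LC3 form used most often to follow autophagosomes, rose from 195 ± 4.20 to 276 ± 3.15 CPM (log2 fold change 0.50, adjusted p = 1.0e-25, edgeR). Map1lc3a fell from 28.7 ± 1.40 to 17.4 ± 0.871 CPM (log2 fold change -0.72, adjusted p = 1.7e-07, edgeR). Gabarap rose (log2 fold change 0.35, adjusted p = 3.5e-13, edgeR), while Gabarapl2 was lower (log2 fold change -0.31, adjusted p = 0.0067, edgeR) with a call lost with DESeq2, without FGF2 replicate 1 or without no FGF2 replicate 1. Wipi1, which binds early autophagosomal membranes, rose from 41.0 ± 5.76 to 68.6 ± 7.49 CPM (log2 fold change 0.74, adjusted p = 1.9e-16, edgeR).

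Ctso, a further cysteine cathepsin chosen after its values were seen, shares the spread of Ctsh. Its call as higher was lost without FGF2 replicate 2, where its log2 fold change was 0.21, against 0.74 without the other FGF2 library.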
